A study of Mus musculus with 7 samples.

Results

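The genes described here are 10 components and outputs of the circadian clock: Clock, the period genes Per1, Per2 and Per3, the cryptochromes Cry1 and Cry2, the nuclear receptors Nr1d1 and Nr1d2, and the transcription factors Dbp and Tef. They were taken by symbol from a table of 46671 mouse genes, and each symbol matched 1 row. RNA had been sequenced from 7 libraries of epithelium labelled as colorectum, from BALB/C mice of 8 weeks. The 4 cKO libraries came from mice without MST3, the kinase encoded by Stk24, in their intestinal epithelial cells, and the 3 Ctrl libraries were labelled WT; the design text calls the mice littermates. The Cre driver that limits the knockout to these cells was not named by the labels. The treatment label of both groups says that no drug was given, although the design text speaks of a carcinogen and colitis protocol (AOM and DSS). Whether every library had a mouse of its own is not said, so the tests below measure spread between libraries, which may in part be technical. No label gives the hour at which tissue was taken.

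The mammalian clock is a loop of transcription and repression that runs in most cells with a period of about a day. CLOCK pairs with BMAL1 (encoded by Arntl) and binds E-boxes in the DNA of the Per, Cry, Nr1d1, Nr1d2 and Dbp genes. PER and CRY proteins then enter the nucleus and repress CLOCK and BMAL1, while the NR1D proteins (REV-ERB alpha and beta) repress Arntl, and ROR proteins oppose them at the same sites. DBP and TEF carry the rhythm to further genes through D-boxes. In nocturnal mice Nr1d1 and Dbp are known to peak in the day, Per2 near dusk and Cry1 in the night, and in the gut feeding also sets the phase, so that the levels of these RNAs depend on when tissue is collected.

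The libraries held between 14659708 and 19659622 reads in genes, and a gene of 1 kb with 3 reads stood at 0.155 to 0.216 FPKM (fragments scaled to gene length and library size), so all 10 clock genes were well above counting limits, with 140 to 4153 reads each. Stk24, the targeted gene, was at 19.4, 19.4 and 21.0 FPKM in the Ctrl libraries, and the cKO libraries lay between 2.92 and 3.85 FPKM (limma log2 difference -2.42, SE 0.12, adjusted p = 0.00043). Epithelial markers were high in every library, at a summed 4307 to 6743 FPKM, and 6 smooth muscle markers together reached at most 0.786 FPKM. The regional markers were those of small intestine, at a summed 13172 to 33109 FPKM, against 2.20 to 4.42 FPKM for 6 colon markers, which goes against the tissue label. Ctrl replicate 3 stood apart from the other 6 libraries in several of the clock genes, and the differences of the 10 clock genes between the genotypes are therefore given with and without it.

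Nr1d1 and Nr1d2 encode the REV-ERB receptors, the repressors of Arntl. Nr1d1 (chromosome 11, 98658758 to 98666233, minus strand, GRCm39) stood at 39.97, 83.0 and 4.52 FPKM in Ctrl replicates 1, 2 and 3, and at 34.6, 40.5, 58.6 and 15.0 FPKM in cKO replicates 1 to 4. Thus Ctrl held both the highest and the lowest library, 18.4-fold apart, and enclosed all of cKO. The low value in Ctrl replicate 3 rested on 218 reads (exact Poisson 95% interval 3.94 to 5.16 FPKM, covering counting error only). Nr1d2 (chromosome 14, 4230549 to 4265640, plus strand) stood at 10.8, 12.3 and 5.22 FPKM in Ctrl and at 13.3, 15.6, 11.9 and 11.2 FPKM in cKO. Ctrl replicate 3 was again the lowest library, and the other 6 lay within 1.44-fold of each other. The ratio of Nr1d1 to Nr1d2, both per length, was 3.69, 6.77 and 0.866 in Ctrl and 2.61, 2.59, 4.95 and 1.34 in cKO, so the alpha gene led in every library but Ctrl replicate 3.

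Dbp and Tef encode activators of the PAR bZIP family, which bind D-boxes. Dbp (chromosome 7, 45354518 to 45359627, plus strand) stood at 53.8, 45.8 and 3.42 FPKM in Ctrl and at 27.8, 30.8, 19.0 and 17.0 FPKM in cKO. Its order was the same at the low end as that of Nr1d1, with Ctrl replicate 3 lowest and cKO replicate 4 next. The libraries of Ctrl differed by 15.7-fold and those of cKO by 1.81-fold, and the value of Ctrl replicate 3 rested on 140 reads (exact Poisson 95% interval 2.88 to 4.04 FPKM). Tef (chromosome 15, 81686874 to 81711064, plus strand) moved over a narrower range, from 21.5, 18.1 and 11.7 FPKM in Ctrl to 16.6, 19.7, 15.0 and 17.8 FPKM in cKO. It too was lowest in Ctrl replicate 3. In all, Ctrl replicate 3 was the lowest library for 4 of the 10 clock genes, namely Nr1d1, Nr1d2, Dbp and Tef, and for 17.5% of all genes tested.

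The promoter windows of Dbp, Per3 and Cry1 are shown. Dbp was the clock gene lowest in Ctrl replicate 3 relative to Ctrl replicate 1. Per3 had the 1 window with D-boxes, and Cry1 was the 1 gene of the 10 whose highest library was Ctrl replicate 3. The windows reach from 250 bases before to 50 bases after the start, 5′ to 3′ on the strand of the gene, from RefSeq in build GRCm38.p6, which is not the build of the expression table; they are chr7:45704997-45705296 (plus), chr4:151044616-151044915 (minus) and chr10:85185005-85185304 (minus). Capitals mark the E-box CACGTG, the variant E-box CACGTT, the D-boxes TTATGTAA and TTACGTAA, the cAMP response element TGACGTCA and the REV-ERB and ROR core AGGTCA, each on either strand.
Dbp: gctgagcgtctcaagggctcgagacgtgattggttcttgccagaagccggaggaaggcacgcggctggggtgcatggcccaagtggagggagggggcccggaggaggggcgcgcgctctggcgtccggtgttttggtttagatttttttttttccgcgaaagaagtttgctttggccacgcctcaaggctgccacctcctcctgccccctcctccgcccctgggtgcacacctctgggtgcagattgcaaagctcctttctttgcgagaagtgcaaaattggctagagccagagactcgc
Per3: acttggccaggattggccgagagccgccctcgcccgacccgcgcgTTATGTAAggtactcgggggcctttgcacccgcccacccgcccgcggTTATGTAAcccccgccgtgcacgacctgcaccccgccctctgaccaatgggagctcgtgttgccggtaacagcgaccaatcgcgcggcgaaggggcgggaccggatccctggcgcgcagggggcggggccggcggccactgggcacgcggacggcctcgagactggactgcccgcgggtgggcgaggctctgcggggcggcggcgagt
Cry1: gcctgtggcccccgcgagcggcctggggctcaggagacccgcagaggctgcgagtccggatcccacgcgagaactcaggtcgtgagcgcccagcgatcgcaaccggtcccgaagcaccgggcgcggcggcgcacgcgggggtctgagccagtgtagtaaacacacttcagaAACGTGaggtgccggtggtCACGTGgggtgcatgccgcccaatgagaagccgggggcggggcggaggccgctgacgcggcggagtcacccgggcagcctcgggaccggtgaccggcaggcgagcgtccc
The window of Per3 held 2 D-boxes, at 205 and 158 bases before the start, and that of Cry1 an E-box at 60 and a variant E-box at 79 bases before it. The window of Dbp held none of these letters, which says nothing of sites elsewhere in the gene. Windows were found for 9 of the 10 clock genes, 13 in all; Per2 had no entry. An E-box was present for 3 of the 9 (Cry1, Per1 and Tef) and in 7.15% of 32851 windows of all genes, the variant for 3 (Cry1, Cry2 and Nr1d1) and in 4.68% of windows, and a D-box for 1 (Per3) and in 1.06% of windows. The REV-ERB and ROR core was present for 3 (Clock, Nr1d2 and Per1) and in 16.3% of windows. The cAMP response element was present for 0 and in 1.79% of windows. These counts are by gene, and some genes had more than 1 window, while the shares are by window. Counted by window, an E-box was in 4 of the 13 and the variant in 3. A D-box was in 1, the REV-ERB and ROR core in 3 and the cAMP response element in 0. A match of letters is a description and shows no binding.

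The period genes encode the PER repressors. Per2 (chromosome 1, 91343699 to 91387072, minus strand) stood at 8.02, 6.87 and 15.0 FPKM in Ctrl and at 9.01, 11.2, 7.48 and 15.1 FPKM in cKO. The highest libraries were cKO replicate 4 and Ctrl replicate 3, 1 of each genotype and almost equal. Per1 (chromosome 11, 68985934 to 69000791, plus strand), which also answers quickly to glucocorticoid and cAMP signals, stood at 2.97, 6.40 and 4.37 FPKM in Ctrl and at 4.15, 2.73, 4.25 and 4.98 FPKM in cKO. Its order differed from that of Per2, since the highest library was Ctrl replicate 2, where Per2 was lowest. Per3 (chromosome 4, 151081475 to 151129167, minus strand), the D-box gene shown above, stood at 3.58, 2.88 and 2.46 FPKM in Ctrl and at 4.37, 5.64, 2.21 and 3.55 FPKM in cKO. It was highest in cKO replicates 2 and 1 and lowest in cKO replicate 3, so the cKO libraries enclosed those of Ctrl.

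The cryptochromes encode the other arm of the repressor complex. Cry1 (chromosome 10, 84967564 to 85020918, minus strand) stood at 5.38, 3.98 and 8.86 FPKM in Ctrl and at 6.06, 5.44, 3.76 and 8.49 FPKM in cKO. Cry2 (chromosome 2, 92233991 to 92264426, minus strand) stood at 5.29, 4.81 and 6.66 FPKM in Ctrl and at 5.05, 5.75, 4.33 and 7.88 FPKM in cKO. In both genes cKO replicate 3 was the lowest library and Ctrl replicate 2 the next. Ctrl replicate 3 and cKO replicate 4 were the 2 highest libraries for Per2, Cry1 and Cry2, 3 of the 10 clock genes, and for 6.16% of all genes tested.

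**Figure D1:**
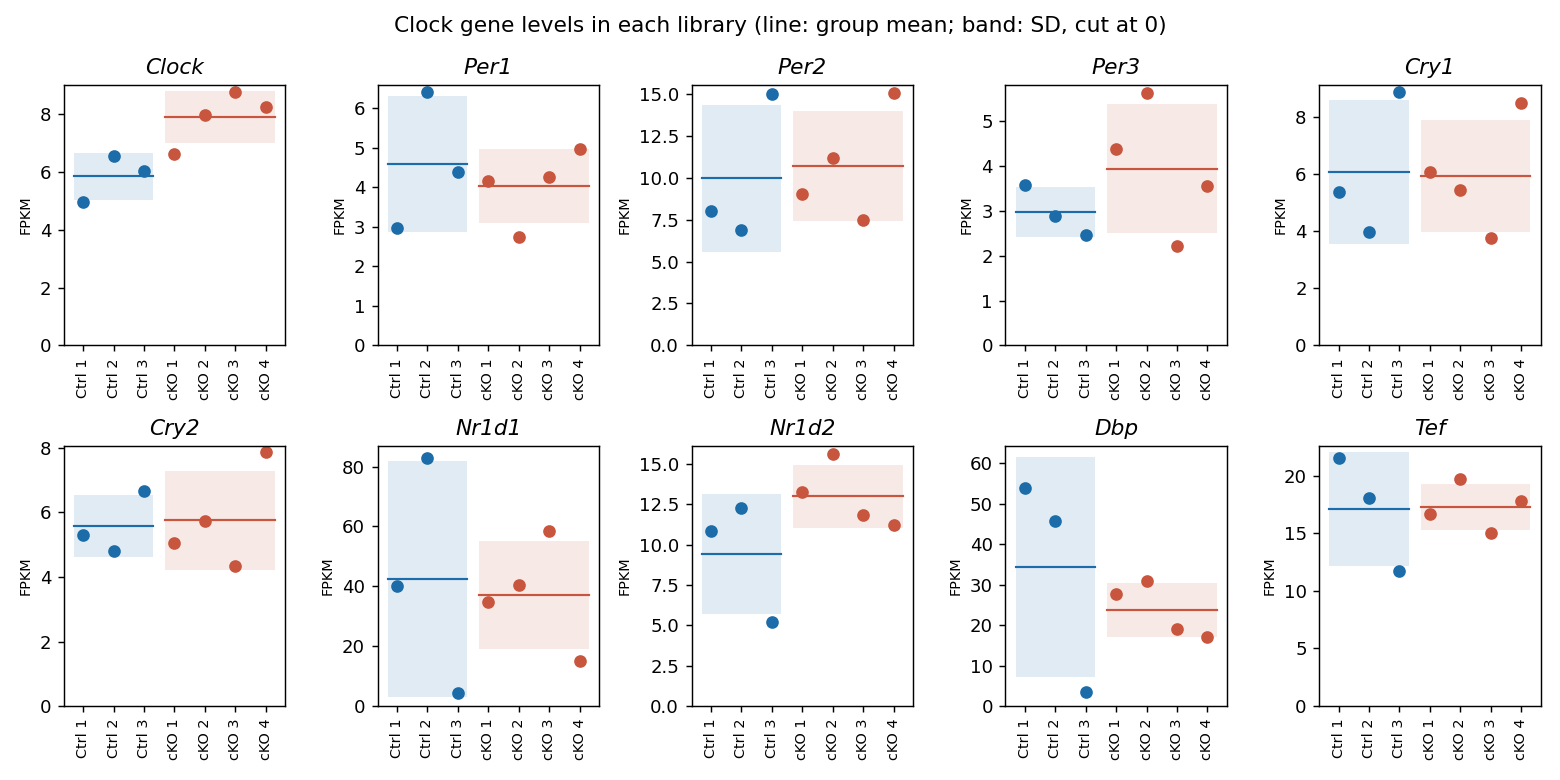
Level of each of the 10 clock genes in FPKM (vertical axis, from 0) in the 3 Ctrl (blue) and 4 cKO (red) libraries (horizontal axis); points are libraries, lines group means and bands 1 SD, cut at 0. Nr1d1 and Dbp fall to 4.52 and 3.42 FPKM in Ctrl replicate 3, and the groups overlap in every panel but that of Clock.

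The ratio of a day gene to a dusk or night gene within a library, each per length, set the libraries further apart than either gene alone. The ratio of Dbp to Per2 was 6.70 and 6.67 in Ctrl replicates 1 and 2 but 0.228 in Ctrl replicate 3, and it was 3.08, 2.75, 2.55 and 1.13 in cKO replicates 1 to 4. The ratio of Nr1d1 to Cry1 was 7.43, 20.8 and 0.510 in Ctrl and 5.72, 7.43, 15.6 and 1.77 in cKO. In both ratios Ctrl replicate 3 was lowest and cKO replicate 4 next. The ratio of Cry1 to Cry2 varied far less and was highest in Ctrl replicate 3, at 1.33.

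Clock, which encodes the DNA-binding partner of BMAL1 and cycles little in many tissues, was the 1 gene of the 10 whose groups did not overlap. Clock (chromosome 5, 76357715 to 76452675, minus strand) stood at 4.96, 6.55 and 6.06 FPKM in Ctrl and at 6.64, 7.96, 8.79 and 8.26 FPKM in cKO. All 4 cKO libraries were above all 3 Ctrl libraries, by a narrow margin between Ctrl replicate 2 and cKO replicate 1. Ctrl averaged 5.85 ± 0.813 FPKM (SD, n = 3) and cKO averaged 7.91 ± 0.915 FPKM (SD, n = 4). The log2 difference was 0.41 (SE 0.14, 95% interval 0.091 to 0.72), with a limma unadjusted p of 0.018 and an adjusted p of 0.516, so the difference did not pass. By the exact 2-sided permutation test p was 0.0571 for Clock, and it was 0.0286 for the targeted gene Stk24. Groups without overlap were found in 10.1% of all genes tested (5.62% with cKO higher), and 8.97% had an unadjusted p under 0.05 (4.24% with cKO higher), so 1 of 10 clock genes is near the share among genes at large. Clock has a long annotated length of 10.2 kb, and the 807 tested genes at least as long had a median log2 difference of 0.13; with each library's trend with length removed, an alternative chosen after seeing the data, the difference of Clock was 0.31 (adjusted p = 0.640).

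None of the 10 clock genes passed the comparison of the genotypes. Of the 13057 genes that averaged 0.5 FPKM or more, 4 had a limma adjusted p under 0.05 (0.0306%), and 0 of the 10 clock genes did, with adjusted p from 0.516 for Clock to 0.994 for Cry1. With voom on recovered reads the count of clock genes was also 0. At an unadjusted p under 0.05 there was 1, Clock. The median log2 difference of the 10 was 0.13, with 8 above 0, against -0.0077 over all genes tested. Of all 13057 genes tested, 6363 were above 0. The count among the clock genes leaned on Ctrl replicate 3. Without that library Nr1d1, Dbp and Tef fell below 0 and Cry1 rose above it. Nr1d2 differed by 0.51 (SE 0.27, 95% interval -0.11 to 1.13, adjusted p = 0.613) and Per3 by 0.31 (SE 0.27, adjusted p = 0.754). For Per1, Per2, Cry1, Cry2 and Tef the log2 differences lay between -0.14 and 0.13, and the intervals of Cry1, from -0.71 to 0.69, and of Cry2, from -0.44 to 0.48, show what these libraries leave undetermined. Scaling mattered for the sign of the smallest one, since the difference of Cry1 was -0.013 as deposited and 0.067 after rescaling to a common sum (TPM). Other settings turned further signs: Per2 stood at -0.044 and Cry2 at -0.13 with a replicate block, which takes cKO replicate 4 out of the comparison, and Nr1d1 at -0.068 and Dbp at -0.17 with array weights.

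For Nr1d1 and Dbp the direction of the difference rested on Ctrl replicate 3. With all 7 libraries Nr1d1 differed by 0.40 (95% interval -1.65 to 2.45, limma adjusted p = 0.920) and Dbp by 0.13 (95% interval -1.79 to 2.05, adjusted p = 0.975). Without that library both turned to lower values in cKO, at -0.78 (95% interval -2.03 to 0.48, adjusted p = 0.730) for Nr1d1 and -1.10 (95% interval -1.70 to -0.49, adjusted p = 0.625) for Dbp. Dbp then stood at 53.8 and 45.8 FPKM in the remaining Ctrl libraries, above all 4 cKO libraries, with a limma unadjusted p of 0.0037 but no call. Tef also changed sign, from 0.050 to -0.19, and Cry1 from -0.013 to 0.28. Nr1d2 kept its sign but moved from 0.51 to 0.15 (95% interval -0.22 to 0.53), and Per3 from 0.31 to 0.20. Per2 then stood at 0.45, Cry2 at 0.14, Per1 at -0.14 and Clock at 0.43. Without Ctrl replicate 3, 2 of the 10 clock genes, Clock and Dbp, had a limma unadjusted p under 0.05, where 7.49% of genes tested did. After adjustment 0 passed, where 0.00769% of genes tested did. Ctrl replicate 3 was singled out because it stood apart in several of these same genes. The count of 2 and the share of all genes are therefore not on equal terms. For Nr1d1, Nr1d2, Dbp and Tef the library left out was the lowest of the 7.

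**Figure D2:**
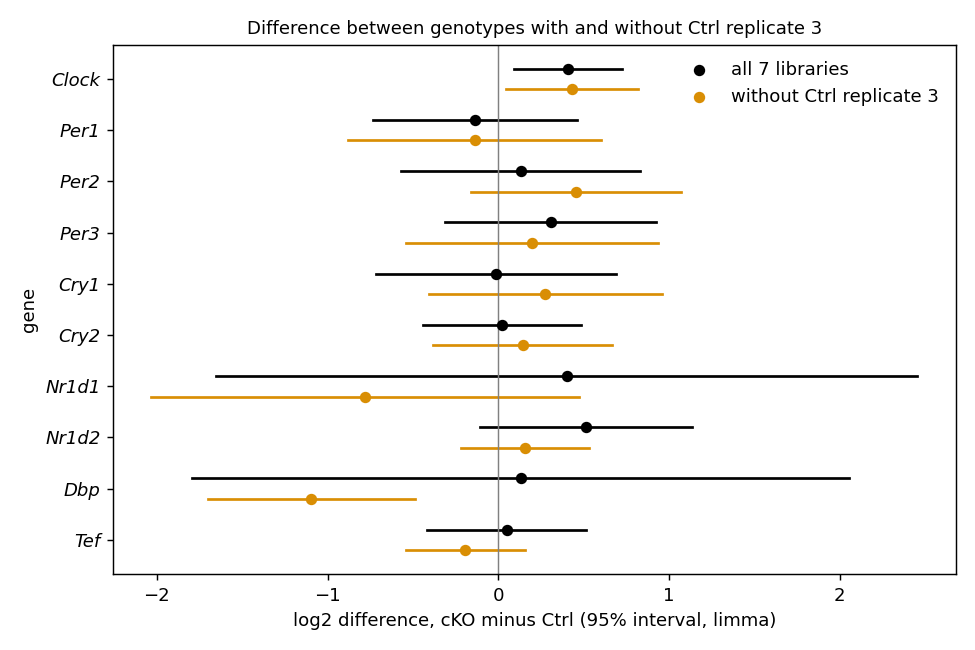
Log2 difference of each clock gene between cKO and Ctrl (horizontal axis, with 95% intervals from limma) with all 7 libraries (black) and without Ctrl replicate 3 (orange). Dbp moves from 0.13 to -1.10 and Nr1d1 from 0.40 to -0.78, while Clock stays at 0.41 and 0.43.

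The spread within genotypes was large for most clock genes. The SD of log2(FPKM + 0.5) around the group means was 1.47 for Nr1d1 and 1.38 for Dbp, which placed them at the 99.3rd and 99.1st percentile of all genes tested. Per2 and Cry1 had an SD of 0.48 each, at the 86.6th percentile in both cases, and Per1, Per3 and Nr1d2 lay between the 80.9th and 83.1st. Clock was the least variable, with 0.17 at the 31.1st percentile. The median SD of the 10 was 0.42, against 0.23 over all genes tested, and 9 of the 10 lay above the median gene. Much of the spread of Dbp, Nr1d2 and Tef came with 1 library: without Ctrl replicate 3 their SDs were 0.36, 0.19 and 0.16, at the 76.9th, 38.2nd and 30.7th percentile. Nr1d1 remained at 0.80 and the 95.9th percentile, and Per1 at 0.45 and the 85.4th, so these genes varied among the other 6 libraries too. The median SD of the 10 was then 0.36.

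**Figure D3:**
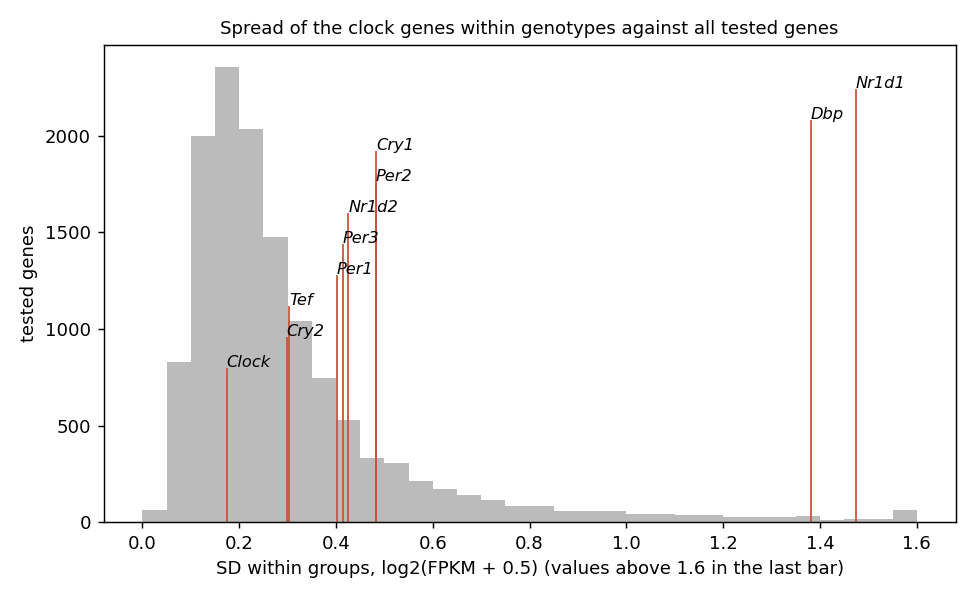
Number of tested genes (vertical axis) by SD within groups on the log2 scale (horizontal axis), with the 10 clock genes marked by red lines of arbitrary height. Nr1d1 (1.47) and Dbp (1.38) lie in the far tail and Clock (0.17) in the bulk.

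The distances between libraries in their clock genes did not sort by genotype. The root mean square log2 difference over the 10 genes was smallest between cKO replicates 1 and 2, at 0.28, and largest between Ctrl replicates 2 and 3, at 1.83, over the 21 pairs. The closest library to each Ctrl library was a cKO library: cKO replicate 1 for Ctrl replicate 1 (0.40), cKO replicate 3 for Ctrl replicate 2 (0.50) and cKO replicate 4 for Ctrl replicate 3 (0.96). Without Dbp and Nr1d1 the last of these distances was 0.48, and those of Ctrl replicate 3 from the other 5 libraries were between 0.64 and 0.79. Over all genes tested, the distances of Ctrl replicate 3 ranged from 0.58 to 0.69, its closest library was cKO replicate 1, and its 6 pairs ranked 14 to 17, 20 and 21 of the 21 from the closest, so this library was among the more distant there too. The 21 pairs share libraries and are not independent.

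**Figure D4:**
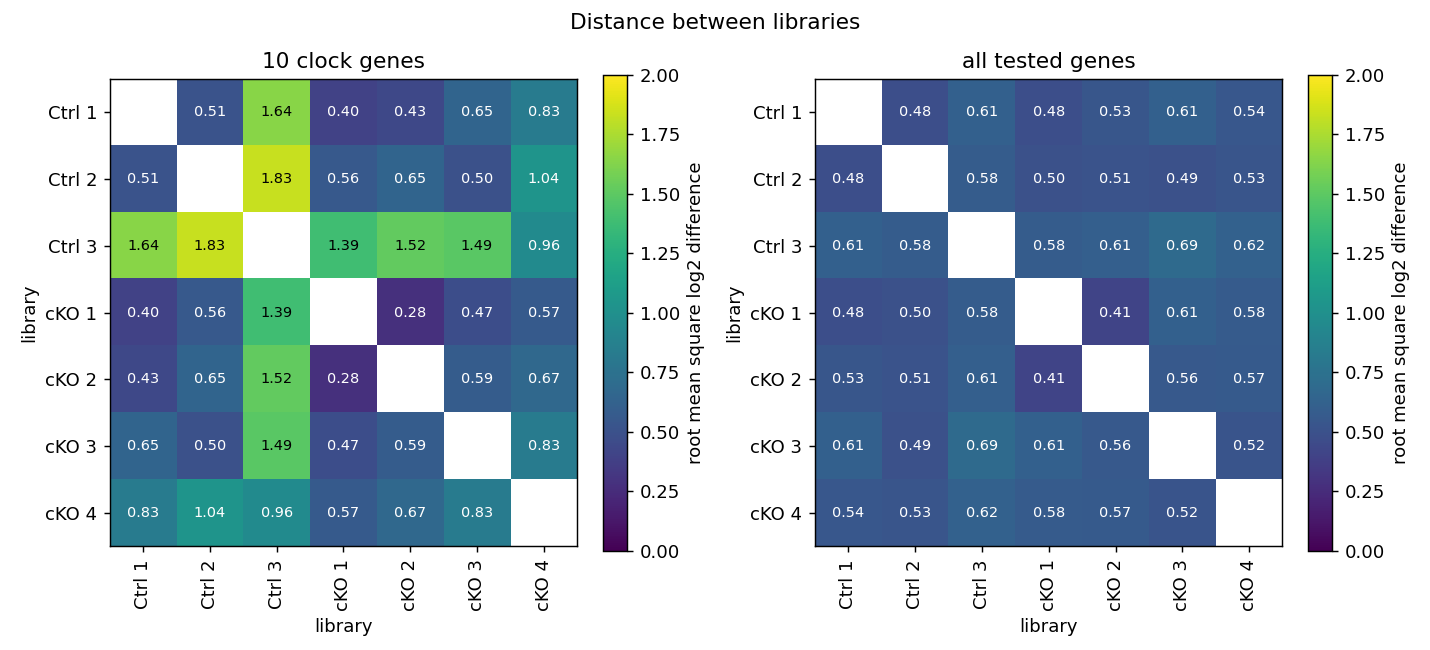
Root mean square log2 difference between each pair of libraries over the 10 clock genes (left) and over all tested genes (right), on the same colour scale. The clock genes set Ctrl replicate 3 apart at 0.96 to 1.83, and over all genes its distances, at 0.58 to 0.69, are also among the larger ones.

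None of the tested genes in 4 further lists of the clock passed between the genotypes. Of 10 activators and members of the ROR, NFIL3 and DEC loops, 6 were high enough to be tested, 0 passed in limma, 0 had an unadjusted p under 0.05, and their median log2 difference was -0.022. Arntl, which encodes BMAL1, was low throughout, at 0.359, 0.627 and 1.08 FPKM in Ctrl and at 0.584, 0.401, 0.594 and 0.501 FPKM in cKO. It was highest in Ctrl replicate 3, where Nr1d1, its repressor, was lowest (limma adjusted p between genotypes = 0.860). The other libraries did not follow this order. Arntl was next highest in Ctrl replicate 2, where Nr1d1 was highest, at 83.0 FPKM. In cKO replicate 4, where Nr1d1 was next lowest, at 15.0 FPKM, Arntl was among its lower values. Bhlhe40, the repressor DEC1, had Ctrl replicate 3 and cKO replicate 4 as its 2 highest libraries, at 45.8 and 64.6 FPKM, as for Per2, Cry1 and Cry2, with the others between 26.5 and 29.8 FPKM (adjusted p = 0.964). Nfil3, a repressor at D-boxes, ranged from 0.921 FPKM in Ctrl replicate 2 to 3.39 FPKM in Ctrl replicate 3 (adjusted p = 0.967). Ciart, a repressor of CLOCK and BMAL1 picked once its values were known, stood at 2.32, 1.79 and 0.387 FPKM in Ctrl and at 1.90, 2.11, 1.06 and 0.600 FPKM in cKO, lowest in Ctrl replicate 3 and next in cKO replicate 4.

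**Figure D5:**
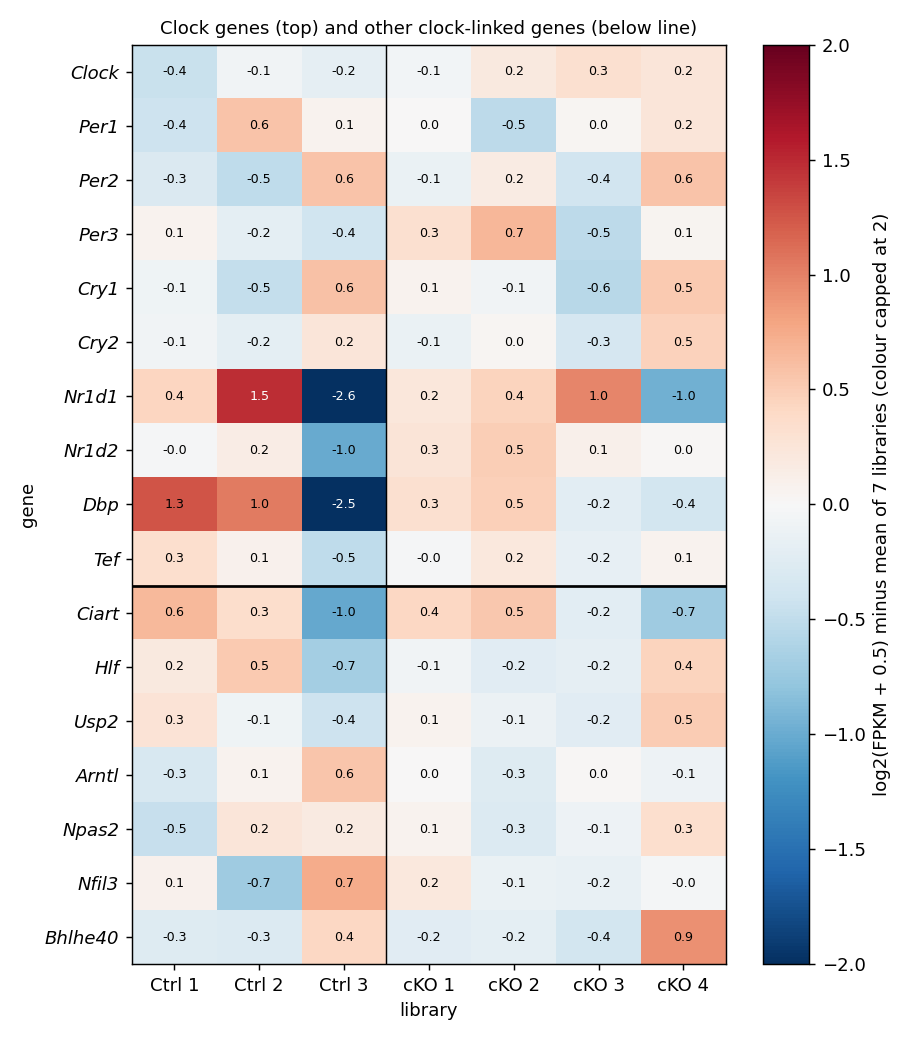
Log2(FPKM + 0.5) of each gene minus its mean over the 7 libraries (colour and printed value), for the 10 clock genes above the line and 7 other genes of the loop or its output below it. Ctrl replicate 3 is lowest for Nr1d1, Dbp, Nr1d2, Tef, Ciart, Hlf and Usp2 and highest for Cry1, Nfil3 and Arntl. The 7 were picked by no stated rule. Among tested genes of the same lists that are not shown, Ctrl replicate 3 was neither lowest nor highest for Wee1, Noct, Tspan4, Nampt and Por. It was highest for Lonrf3.

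Of 8 rhythmic output genes outside the 10, all were tested, 0 passed in limma and 0 had an unadjusted p under 0.05, with a median log2 difference of 0.025. Por, an electron donor for cytochrome P450 enzymes, averaged 112 ± 17.7 FPKM in Ctrl (n = 3, ± SD here and in the next genes) against 91.6 ± 24.9 FPKM in cKO (n = 4). Tspan4 stood at 0.736 ± 0.0919 and 0.560 ± 0.0723 FPKM, with no overlap between groups and 21 to 45 reads a library (adjusted p = 0.741). It was the 1 gene of the 8 without overlap, where 10.1% of all genes tested had none. The deubiquitinase gene Usp2 stood at 8.66 ± 2.20 and 9.55 ± 2.41 FPKM, and Lonrf3 at 0.879 ± 0.567 and 1.03 ± 0.308 FPKM. Hlf, the third PAR bZIP gene, was lowest in Ctrl replicate 3, at 1.66 FPKM, and stood between 2.47 and 4.48 FPKM elsewhere; it was chosen after its values were seen.

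Genes for the kinases, ubiquitin ligases and deacetylase that act on clock proteins varied little. Of 12 listed, 11 were tested and 0 passed in limma. At a limma unadjusted p under 0.05 there was 1, Gsk3b, where 8.97% of all genes tested were under it. The 11 had a median log2 difference of 0.031 and a median SD within groups of 0.13, at the 14.6th percentile. Gsk3b, a kinase of PER, CRY and NR1D1 proteins, averaged 10.2 ± 0.579 FPKM in Ctrl (n = 3, ± SD) against 12.2 ± 0.976 FPKM in cKO (n = 4), a log2 difference of 0.25 (adjusted p = 0.542), and Csnk1a1 at 33.1 ± 2.42 and 38.99 ± 3.35 FPKM (adjusted p = 0.585). Both had groups that did not overlap, 2 of the 11 tested, where 10.1% of all genes did. Csnk1d, a PER kinase, averaged 38.9 ± 2.51 and 34.1 ± 3.54 FPKM (adjusted p = 0.662).

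Genes induced by glucocorticoids, which act on the clock of peripheral tissues, were widely spread within the genotypes. Of 6 listed, 5 were tested, 0 passed in limma, 0 had an unadjusted p under 0.05 and 4 lay in the top 10% of all tested genes by SD within groups. Fkbp5, a chaperone of the glucocorticoid receptor, stood at 26.4, 20.3 and 38.8 FPKM in Ctrl and at 24.3, 22.5, 9.50 and 50.3 FPKM in cKO. Tsc22d3 stood at 17.7, 30.3 and 41.6 FPKM in Ctrl and at 20.4, 16.1, 25.3 and 49.5 FPKM in cKO, and the phosphatase gene Dusp1 at 2.20, 5.76 and 12.2 FPKM and at 3.10, 1.95, 3.69 and 8.03 FPKM. In all 3 genes Ctrl replicate 3 and cKO replicate 4 were the 2 highest libraries, as for Per2, Cry1 and Cry2. Klf9 averaged 5.98 ± 1.45 FPKM in Ctrl (n = 3, ± SD) against 7.72 ± 0.821 FPKM in cKO (n = 4), with a limma adjusted p of 0.568. Adjusted p of the 5 lay between 0.568 and 0.958.

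Markers of other cells also moved with these libraries in part. The summed level of 6 fibroblast markers was highest in cKO replicate 4 (7.91 FPKM) and Ctrl replicate 3 (6.16 FPKM), with the other 5 libraries between 0.676 and 2.92 FPKM; Dcn alone stood at 6.25 FPKM in cKO replicate 4 and at 4.70 FPKM in Ctrl replicate 3, and only Dcn of the 6 was high enough to be tested. The sum for 6 T cell and innate lymphoid markers ran from 39.1 FPKM in cKO replicate 1 to 146 FPKM in Ctrl replicate 1, with 70.4 FPKM in Ctrl replicate 3. Sums were at most 0.967 FPKM for 4 endothelial and 0.384 FPKM for 5 neuronal and glial markers, and between 2.24 and 10.3 FPKM for 6 B and plasma cell markers. The share of mitochondrial reads was 4.19% in Ctrl replicate 3 and highest in cKO replicate 4, at 7.51%, over a range from 3.71%. The part of cell makeup, RNA quality and hour of collection in the levels of the clock genes was not tested, and fewer cells of a type and less RNA per cell cannot be told apart in bulk tissue.

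The genes with the profile most like that of Dbp over the 7 libraries were not clock genes. Among 11417 tested genes that averaged 1 FPKM or more, ranked by the root mean square difference between log2 profiles centred on their means, the closest were the pseudogenes Gm5805 (0.37), Gm7143 (0.39), Gm17828 (0.46) and Gm7336 (0.55), where a flat profile would stand at 1.17. Nr1d1 ranked 11th (0.62), Ciart 18th (0.68), Nr1d2 70th (0.85) and Tef 200th (0.94). The profiles closest to the mirror image of Dbp were those of Slc28a2b (0.37), the pseudogene Gm5561 (0.43), Clu (0.46) and the noncoding LOC115487216 (0.48), with Per2 in position 187 (0.92). These mirror profiles set Ctrl replicate 3 apart: Slc28a2b stood at 8.22 FPKM in Ctrl replicate 3 and at most at 0.817 FPKM elsewhere. Pseudogenes can share reads with the genes they derive from, so their single values are uncertain.

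Of the 10 clock genes, 5 overlap others on the opposite strand, and no source used here says whether reads were counted by strand. Nr1d1 shares 1075 bases with Thra, which stood between 14.2 and 22.6 FPKM, and Dbp shares 741 bases with Sphk2, which stood between 18.1 and 26.9 FPKM. Both partners varied much less than Nr1d1 and Dbp, at 17.4 FPKM for Thra and 25.3 FPKM for Sphk2 in Ctrl replicate 3. The partners of Per3 and Cry2 had at most 2 and 9 reads in a library. How much of a low Nr1d1 or Dbp value came from partner reads was not tested.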

How the data were processed

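Values were the authors' deposited FPKM, 1 per gene and library for 46671 genes, with gene lengths and coordinates whose chromosome accessions are those of GRCm39. Reads were aligned with HISAT2, per the submitters' processing notes; no version, counting program or strand setting is named there or in the labels. Multiplied by gene length and divided by the smallest step of its library, 100% of values came out whole (tolerance 0.01), which gave the reads behind them. Groups and replicate numbers came from the sample titles. The deposited values are headed by running numbers that differ from these for every library but Ctrl replicate 1. The sample descriptions link these headings to the titles.

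Genes averaging 0.5 FPKM or more were compared on log2(FPKM + 0.5), which understates changes of low genes, with limma 3.58.1 in R 4.3.3 (lmFit, eBayes with a trend, 2-sided, no covariate, Benjamini-Hochberg over all genes tested, threshold 0.05). For single genes, the difference of the group means of log2 values also had an exact 2-sided permutation test over library labels. The code was tested on simulated data. Named genes were the 10 clock genes, up to 4 tested genes of smallest p in each further clock list (2 of these are not reported here), and the 4 nearest profiles to Dbp and to its mirror image. The clock genes and lists were chosen with earlier results of these data known. All 97 listed symbols matched 1 row each. Promoter windows came from RefSeq (GRCm38.p6). Alternatives were pseudocounts 0.1 and 1, no filter, a mean of at least 1 FPKM, TPM, median of ratios, quantile normalization, robust variance, array weights, voom on recovered reads (10 reads in 3 libraries), a replicate block and leaving out each library. Removal of the length trend was added after seeing the data.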

Additional observations from a re-analysis of the deposited data

Results flagged for a closer look

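Among the 4 cKO libraries, 1 library lay far from the others for Bhlhe40, which encodes the clock repressor DEC1. Its gap to the nearest library, divided by the range of the group on the log2 scale, was 0.871, above Dixon's 95% critical value for 4 samples. The library was cKO replicate 4, at 64.6 FPKM against 29.1, 29.8 and 26.5 FPKM in cKO replicates 1 to 3, and Ctrl replicate 3 stood at 45.8 FPKM. Chance gives about 1 such library in 20 groups, and 24 genes were examined. Groups of 3, such as Ctrl, were not examined in this way.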

How the results depend on the processing

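None of the 10 clock genes and none of the 30 tested genes of the other clock lists passed under any of the 19 alternatives to the settings used; adjusted p of the clock genes lay between 0.347 and 0.997. The count over all genes tested was 4, and it was 1 with a pseudocount of 0.1, with no filter, with a mean of at least 1 FPKM and with the length trend removed, 2 with voom, 0 with the replicate block and between 1 and 7 with 1 library left out (7 without cKO replicate 1; 2 without Ctrl replicate 1; 1 without any other). With the replicate block, 1052 genes had an unadjusted p under 0.05, against 1171. The median SD within groups of the 10 clock genes lay between 0.36 and 0.46 under its alternatives.

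Some differences changed sign, among them that of Nr1d1, which was 0.40 in the settings used. With array weights they were 0.13 for Cry1, -0.068 for Nr1d1, -0.17 for Dbp and 0.16 for Nfil3. With the length trend removed they were -0.0036 for Cry2 and -0.021 for Tef, and with TPM 0.067 for Cry1 and 0.0080 for Nfil3. With the replicate block, which leaves out cKO replicate 4 because no Ctrl library shares its number, they were -0.044 for Per2, -0.13 for Cry2, -0.22 for Bhlhe40 and -0.018 for Usp2, and Stk24 stood at -2.44 with an adjusted p of 0.137. Replicate numbers did not pair the libraries: the deviations of same-numbered libraries from their group means correlated at 0.115, -0.0872 and -0.129, and the highest correlation, 0.310, was between Ctrl replicate 2 and cKO replicate 3. With 1 library left out the differences lay between -0.38 and 0.11 for Per1, -0.084 and 0.45 for Per2, -0.25 and 0.28 for Cry1, -0.13 and 0.14 for Cry2, -0.78 and 1.25 for Nr1d1, -1.10 and 0.80 for Dbp, -0.19 and 0.23 for Tef, -0.39 and 0.047 for Arntl, -0.22 and 0.30 for Bhlhe40, -0.44 and 0.29 for Nfil3, -0.039 and 0.31 for Usp2, -1.08 and 0.035 for Dusp1, -0.65 and 0.13 for Fkbp5, and -0.48 and 0.13 for Tsc22d3. For Clock they lay between 0.30 and 0.49, for Nr1d2 between 0.15 and 0.73 and for Per3 between 0.13 and 0.52. Without Ctrl replicate 3 the sign also turned for Arntl (0.047), Nfil3 (0.29), Usp2 (-0.039), Dusp1 (0.035) and Tsc22d3 (0.13). Apart from the effect of fewer samples, the cause was not tested.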

Other observations

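A noncoding gene on the strand opposite to Per2, Gm35591, shares 10520 bases with its locus and was high where Per2 was low. It stood at 0.397, 0.989 and 0.0804 FPKM in Ctrl replicates 1 to 3 and at 0.495, 0.470, 0.657 and 0.0546 FPKM in cKO replicates 1 to 4. The lowest libraries, with 12 and 7 reads, were Ctrl replicate 3 and cKO replicate 4, where Per2 was highest, and the highest, with 153 reads, was Ctrl replicate 2, where Per2 was lowest. The gene was chosen after its values were seen, and without a stated strand its reads cannot be told apart from those of Per2.

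Noct, which encodes the rhythmic phosphatase nocturnin, and Sgk1, a kinase induced by glucocorticoids, had the same 3 lowest libraries. Noct stood at 16.4, 42.8 and 29.2 FPKM in Ctrl and at 14.0, 15.9, 51.1 and 43.9 FPKM in cKO, and Sgk1 at 27.3, 114 and 153 FPKM in Ctrl and at 37.6, 29.5, 115 and 169 FPKM in cKO. Ctrl replicate 1 and cKO replicates 1 and 2 were the lowest in both genes, as in Tsc22d3 and Dusp1, and Sgk1 was highest in cKO replicate 4 and Ctrl replicate 3. Both were chosen after their values were seen, and neither passed between the genotypes in limma (adjusted p = 0.988 and 0.958).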
